A study of Mus musculus with 14 samples.

Results

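Expression of 9 genes of plasminogen activation, clotting and serpin-type protease inhibition was followed in mouse ventricles under pressure overload. They were Serpine2, Serpina3n and Serpina3g (inhibitors), Plat, Plau and Plaur (plasminogen activators and a receptor), and F3, F2r and Thbd (tissue factor, a thrombin receptor and thrombomodulin). They were taken by symbol from a table of 54532 gene IDs, and all 9 were among the 15876 genes with enough counts to be tested. The study measured polyA RNA from ventricular tissue 1 week after surgery, in 4 knockout TAC libraries, 6 wild type TAC libraries, 2 knockout sham libraries and 2 wild type sham libraries. TAC is constriction of the transverse aorta, which raises the load on the left ventricle, and sham is the same operation without the constriction. The knockout, written CCL24 KO in the labels, lacks the chemokine gene Ccl24. The sources used here give neither its construction nor the strain, sex and age of the animals. Nothing in the labels says whether the samples came from separate animals, so the p-values measure only the spread between these samples.

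The libraries held 17072262 to 33123052 gene counts, so that 3 counts corresponded to 0.0898 to 0.172 CPM (counts relative to library size, scaled by TMM factors). Ccl24 had 3 to 8 counts in the 6 knockout libraries and 56 to 105 counts in 7 of the 8 libraries labelled wild type. The library labelled replicate 1 of wild type TAC had 3 Ccl24 counts, which goes against its label; results are given with it and also, where they change, after leaving it out. Ccl24 averaged 0.243 ± 0.0888 CPM in knockout TAC libraries and 2.68 ± 1.43 CPM in wild type TAC libraries (SD, n = 4 and 6), or 3.19 ± 0.786 CPM (n = 5) without that library. The heart muscle markers Myh6, Actc1, Tnnt2, Tnni3, Ryr2 and Pln were present in every library. Their summed level was 39723 to 47913 CPM in knockout TAC, 33552 to 44040 in wild type TAC, 50534 to 54645 in knockout sham and 46229 to 48123 in wild type sham. The 6 fibroblast markers summed to 1493 to 2454 CPM in knockout TAC, 2064 to 6188 in wild type TAC, 1186 to 1321 in knockout sham and 1374 to 1506 in wild type sham. In such bulk RNA, fewer cells of a type and less RNA per cell cannot be told apart.

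Plasminogen, made mostly by the liver, is cut to the protease plasmin by tissue-type activator (Plat) or by urokinase (Plau), and urokinase is held at the cell surface by its receptor (Plaur). Plasmin dissolves fibrin and digests matrix proteins. Clotting starts when tissue factor (F3) meets factor VIIa and leads to thrombin, which makes fibrin and signals to cells through a protease-activated receptor (F2r). Thrombomodulin (Thbd), on the endothelial surface, binds thrombin and turns it towards protein C activation. Serpins are inhibitors that trap a protease in a dead-end complex. Serpine2 (protease nexin-1) acts on thrombin, urokinase and plasmin at the cell surface, and mouse Serpina3n and Serpina3g belong to a family expanded next to each other on chromosome 12.

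The coordinates below are those of the mouse build GRCm38 in GENCODE M21, and each gene is annotated as protein coding. Plat lies on chromosome 8 (22757727 to 22782844, plus strand), Plau on chromosome 14 (20836660 to 20843385, plus strand) and Plaur on chromosome 7 (24462484 to 24475968, plus strand). Serpine2 lies on chromosome 1 (79794197 to 79861180, minus strand), Serpina3g on chromosome 12 (104236245 to 104241939, plus strand) and Serpina3n on the same chromosome (104406729 to 104414329, plus strand). F3 lies on chromosome 3 (121723537 to 121735048, plus strand), F2r on chromosome 13 (95601803 to 95618487, minus strand) and Thbd on chromosome 2 (148404466 to 148408188, minus strand). Counts for the Serpina3 genes are less certain than for the rest. Of the 50-base stretches of annotated transcript, 15.5% in Serpina3g and 6.90% in Serpina3n were also found in another gene, most often Serpina3f, against 0.0728% in Serpine2 and none in the other 6 genes. Of the 100-base stretches, 3.49% in Serpina3g (most often shared with Serpina3h) and 0.204% in Serpina3n were, and none in the other 7 genes. The read length is not given in the sources used here.

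The RefSeq promoter table for GRCm38.p6 held a window of 300 bases, from 250 before to 50 after the annotated start, for 6 of the 9 genes. The windows of 4 genes are printed, those that held a match to a motif searched. Of these genes, Plaur and F2r differed between surgeries, Serpina3g differed between genotypes, and F3 passed in no comparison of the main fit. Capitals mark matches to TGANTCA, the AP-1 motif, in Plaur (position -69 from the start), F2r (-204) and F3 (-146 and -135), to TTCNNNGAA, a STAT motif, in Serpina3g (-33), and to TATAAA read on the opposite strand in F3 (44). Positions give the first base of each match, counted from the RefSeq start. That start can differ from the GENCODE start given above. In Serpina3g the GENCODE start, 104236245, lies past the end of the window, and in Serpine2 the GENCODE start, 79861180, also lies outside the window. The windows are chr7:24462233-24462532 (plus strand) for Plaur, chr13:95618417-95618716 (minus strand) for F2r, chr3:121723287-121723586 (plus strand) for F3 and chr12:104235897-104236196 (plus strand) for Serpina3g.
Plaur: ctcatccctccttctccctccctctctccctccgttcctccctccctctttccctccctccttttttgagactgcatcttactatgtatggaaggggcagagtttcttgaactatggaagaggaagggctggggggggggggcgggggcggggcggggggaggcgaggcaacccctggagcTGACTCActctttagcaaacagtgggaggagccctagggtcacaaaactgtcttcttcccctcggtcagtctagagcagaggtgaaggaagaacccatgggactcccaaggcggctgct
F2r: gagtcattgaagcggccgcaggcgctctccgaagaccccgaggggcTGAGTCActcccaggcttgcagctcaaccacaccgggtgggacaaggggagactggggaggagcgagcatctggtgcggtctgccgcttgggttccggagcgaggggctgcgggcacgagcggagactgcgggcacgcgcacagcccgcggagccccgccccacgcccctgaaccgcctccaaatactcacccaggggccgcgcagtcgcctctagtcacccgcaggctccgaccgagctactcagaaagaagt
F3: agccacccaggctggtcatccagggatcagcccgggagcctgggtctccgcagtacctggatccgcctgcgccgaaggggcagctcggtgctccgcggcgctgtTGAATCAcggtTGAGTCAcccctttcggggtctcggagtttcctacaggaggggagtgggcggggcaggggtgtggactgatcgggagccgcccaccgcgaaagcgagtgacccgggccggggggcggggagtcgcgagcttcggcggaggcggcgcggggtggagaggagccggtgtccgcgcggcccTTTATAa
Serpina3g: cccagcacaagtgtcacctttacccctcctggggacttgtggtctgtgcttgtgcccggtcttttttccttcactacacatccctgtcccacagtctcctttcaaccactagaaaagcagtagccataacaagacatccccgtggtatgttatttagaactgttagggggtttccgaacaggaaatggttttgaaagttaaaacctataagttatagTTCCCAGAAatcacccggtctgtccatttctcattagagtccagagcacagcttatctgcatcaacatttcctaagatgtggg
Both strands were searched. Of all 32851 mouse windows of this length, 7.81% held TGANTCA, 8.30% held TTCNNNGAA and 13.6% held TATAAA. The windows of Serpine2 and Serpina3n held none of these. No window held the EGR motif GCGTGGGCG, which 0.612% of all windows held, and the short KLF motif CACCC, not capitalised here, occurred in 57.5% of all windows. It had 4 matches in F3, one of which overlaps the AP-1 match at -135, 3 in F2r and 1 in Serpina3g. A match describes the letters in the window and is no measure of binding.

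The first question was how the 9 genes differed between TAC and sham hearts of each genotype. Differences are log2 fold changes, TAC over sham, from edgeR's quasi-likelihood test fitted on all 15876 genes and 4 groups, with p-values adjusted over all of them by Benjamini-Hochberg and a threshold of 0.05. In knockout hearts 3 of the 9 genes were higher after TAC (Plaur, Serpine2, Plat) and none was lower, where 4.08% of all tested genes passed, 2.36% upward. In wild type hearts 3 of the 9 were higher (Serpine2, Plat, F2r) and none was lower, where 12.2% of all genes passed, 6.36% upward. Without the library labelled replicate 1 of wild type TAC the counts were again 3 and 3, where 5.28% of all genes passed in knockout and 17.3% in wild type hearts. The median log2 fold change over the 9 genes was 0.63 in knockout and 0.88 in wild type hearts, against -0.01 and 0.01 over all tested genes. Serpine2 and Plat passed in both genotypes, and the share of all tested genes that did so is not given here.

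**Figure D1:**
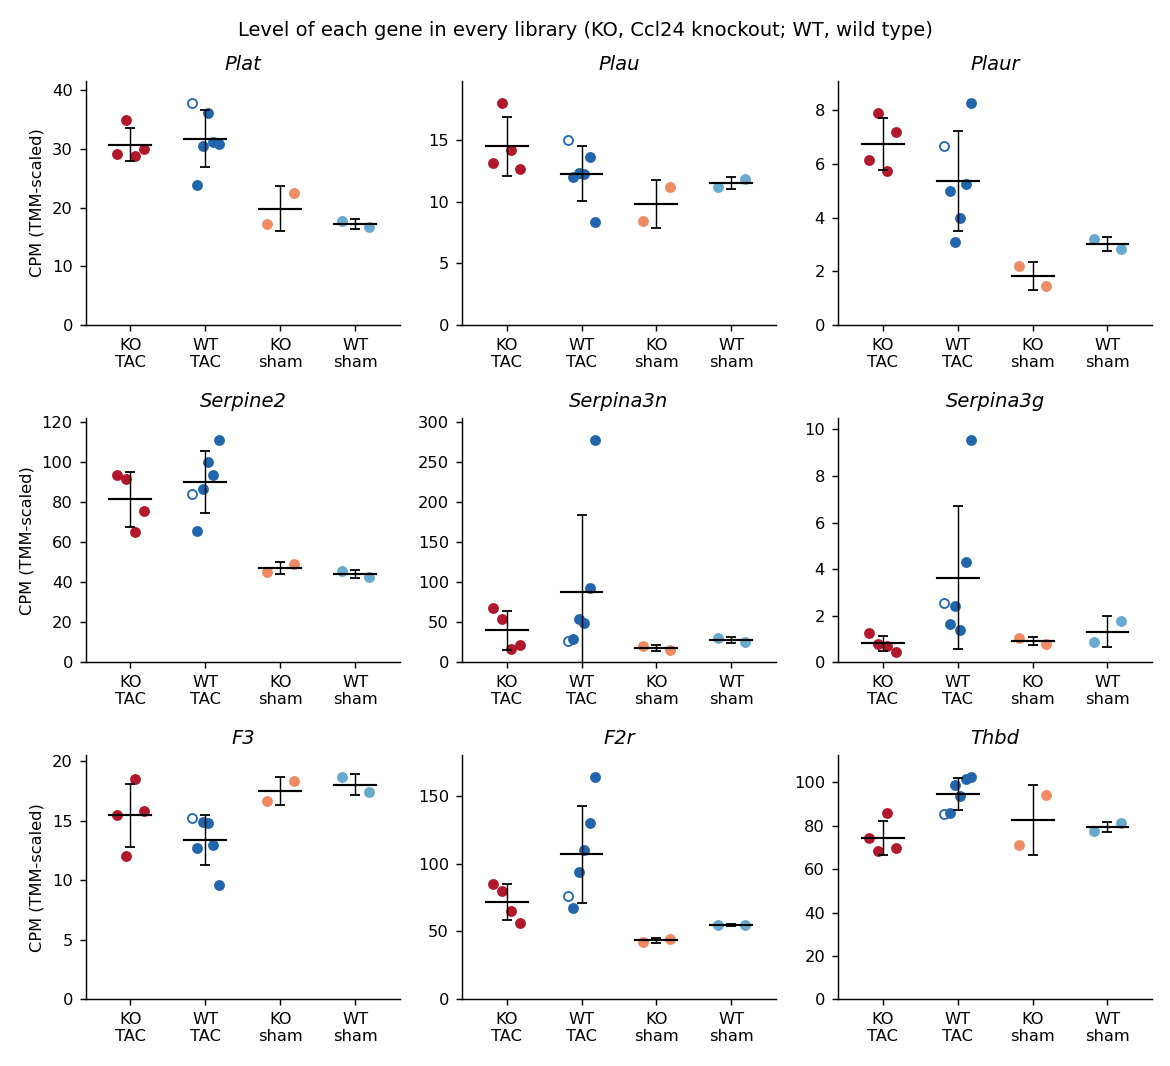
Level of each of the 9 genes in CPM (linear axis from 0) in the 14 libraries, by group. Each point is 1 library, bars are group means and error bars SD; the open circle is the library labelled replicate 1 of wild type TAC. Serpine2, Plat and F2r lay above sham in every TAC library of both genotypes, whereas Serpina3n and Serpina3g spread widely among wild type TAC libraries, up to 277 and 9.53 CPM.

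Plat, the tissue-type plasminogen activator, was 1.55-fold higher after TAC in knockout hearts and 1.84-fold higher in wild type hearts. It stood at 29.1, 34.9, 28.9 and 30.1 CPM in the 4 knockout TAC libraries, against 17.2 and 22.5 CPM in the knockout sham libraries. In wild type TAC libraries it ran from 23.9 CPM through a median of 31.0 to 37.8 CPM, against 17.8 and 16.6 CPM in wild type sham. Every TAC library lay above every sham library of its genotype. The log2 fold change was 0.63 (SE 0.16, edgeR adjusted p = 0.037) in knockout and 0.88 (SE 0.15, edgeR adjusted p = 0.0073) in wild type hearts. The knockout call was lost when knockout TAC replicate 2 (adjusted p = 0.11) or 5 (0.07), knockout sham replicate 1 (0.49) or 2 (0.061), or wild type sham replicate 1 or 2 (0.055 each) was left out, and in limma voom (0.056). The wild type call was lost without wild type sham replicate 1 (0.12) or 2 (0.16).

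Plau, the urokinase gene, gave no call in either genotype. Its 4 knockout TAC libraries held 13.1, 18.0, 14.2 and 12.6 CPM, all above the 8.48 and 11.2 CPM of knockout sham, with a log2 fold change of 0.56 (SE 0.20, edgeR adjusted p = 0.13). Wild type TAC libraries held 8.36 to 15 CPM with a median of 12.3, around the 11.2 and 11.9 CPM of wild type sham (log2 fold change 0.09, SE 0.19, edgeR adjusted p = 0.79). Without wild type TAC replicate 7, the lowest library for this gene, the knockout difference, again 0.56, passed (edgeR adjusted p = 0.039).

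Plaur, the urokinase receptor, had the largest fold among the calls after TAC, 3.67-fold higher in knockout hearts. Its counts were low, 30 to 276 per library. Knockout TAC libraries held 6.15, 7.91, 5.74 and 7.18 CPM and knockout sham libraries 2.21 and 1.47 CPM, with no overlap. Wild type TAC libraries held 3.08 to 8.27 CPM (median 5.12) and wild type sham libraries 3.20 and 2.84 CPM, and here replicate 3 of wild type TAC fell within the sham range. The log2 fold change was 1.88 (SE 0.35, edgeR adjusted p = 0.0093) in knockout hearts and 0.83 (SE 0.31, edgeR adjusted p = 0.086) in wild type hearts. The knockout call was lost without knockout sham replicate 1 (adjusted p = 0.16) or 2 (0.096). The wild type difference passed without wild type TAC replicate 3 (0.044), and in DESeq2 (0.047).

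Serpine2, the cell-surface inhibitor of thrombin and urokinase, was 1.73-fold higher after TAC in knockout and 2.03-fold higher in wild type hearts. Knockout TAC libraries held 93.3, 91.4, 65.0 and 75.2 CPM, against 45.1 and 49.1 CPM in knockout sham. Wild type TAC libraries held 65.4 to 111 CPM with a median of 89.8, against 45.6 and 42.8 CPM in wild type sham. The lowest TAC library of each genotype was above the highest sham library. The log2 fold change was 0.79 (SE 0.18, edgeR adjusted p = 0.025) in knockout and 1.02 (SE 0.17, edgeR adjusted p = 0.0068) in wild type hearts. The knockout call was lost without knockout TAC replicate 2 (adjusted p = 0.074), knockout sham replicate 1 (0.37) or 2 (0.11), and the wild type call without wild type sham replicate 1 (0.12) or 2 (0.15).

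F2r, the thrombin receptor PAR1, was 1.95-fold higher after TAC in wild type hearts, at the edge of the threshold. Knockout TAC libraries held 85.3, 79.9, 64.7 and 56.5 CPM and knockout sham libraries 42.1 and 44.7 CPM. In wild type TAC it stood at 67.4 to 163 CPM with a median of 102, and wild type sham libraries 54.4 and 55.1 CPM. TAC and sham libraries did not overlap in either genotype, and the 2 wild type sham libraries were nearly equal. The log2 fold change was 0.72 (SE 0.30, edgeR adjusted p = 0.20) in knockout hearts and 0.96 (SE 0.29, edgeR adjusted p = 0.0495) in wild type hearts. The wild type call remained in 3 of 14 fits that left out 1 library, those without wild type TAC replicate 1 (adjusted p = 0.028), 2 (0.017) or 7 (0.044), and in the 11 others, each without any one of the rest of the libraries, the adjusted p was 0.053 to 0.27. It was also lost with RLE scaling (0.051), without the filter on low counts (0.13) and with compared groups only (0.11), while the knockout difference passed with compared groups only (0.01).

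F3 and Thbd did not pass in either genotype. F3, tissue factor, was the one gene of the 9 with lower TAC means in both genotypes. It held 15.5, 12, 18.5 and 15.9 CPM in knockout TAC libraries, against 16.6 and 18.3 CPM in knockout sham. Wild type TAC libraries held 9.62 to 15.2 CPM (median 13.9), all below the 18.6 and 17.4 CPM of wild type sham. The F3 log2 fold change was -0.18 (SE 0.18, edgeR adjusted p = 0.60) in knockout hearts and -0.43 (SE 0.16, edgeR adjusted p = 0.089) in wild type hearts. Thbd held 74.3, 68.3, 85.7 and 69.6 CPM in knockout TAC libraries, against 71.2 and 94.0 CPM in knockout sham, so that 2 of the 4 lay within the sham range and 2 below it. Its wild type TAC libraries held 85.6 to 102 CPM (median 96.2), all above the 77.8 and 81.1 CPM of wild type sham. The Thbd log2 fold change was -0.15 (SE 0.12, edgeR adjusted p = 0.52) in knockout and 0.25 (SE 0.12, edgeR adjusted p = 0.16) in wild type hearts.

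Serpina3n, an inhibitor of granzyme B and other serine proteases in mouse, varied more than any other of the 9 genes, with a coefficient of variation of 121% over the 14 libraries, against 13.9% for Thbd, the least variable. Knockout TAC libraries held 67.5, 53.9, 17.1 and 21.3 CPM, and knockout sham libraries 20.5 and 14.8 CPM. In wild type TAC the level was 26.8 to 277 CPM with a median of 51.5, and in wild type sham it was 30.6 and 25.7 CPM. Within each genotype some TAC libraries lay inside the sham range and others well above it. The TAC over sham log2 fold change was 1.18 (SE 1.00, edgeR adjusted p = 0.55) in knockout hearts and 1.65 (SE 0.97, edgeR adjusted p = 0.28) in wild type hearts. Without wild type TAC replicate 7, the wild type value was 0.84 (edgeR adjusted p = 0.43).

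Serpina3g, described in mouse as an inhibitor of cysteine cathepsins, had 8 to 318 counts per library, and its lowest count was the lowest of the 9 genes. Knockout TAC libraries held 1.26, 0.805, 0.707 and 0.460 CPM, and knockout sham libraries 1.03 and 0.784 CPM. Wild type TAC libraries held 1.38 to 9.53 CPM with a median of 2.47, and wild type sham libraries 0.853 and 1.78 CPM. TAC and sham libraries overlapped in both genotypes. The TAC over sham log2 fold change was -0.15 (SE 0.81, edgeR adjusted p = 0.94) in knockout and 1.49 (SE 0.70, edgeR adjusted p = 0.17) in wild type hearts, where it was 0.91 without wild type TAC replicate 7 (edgeR adjusted p = 0.19).

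**Figure D2:**
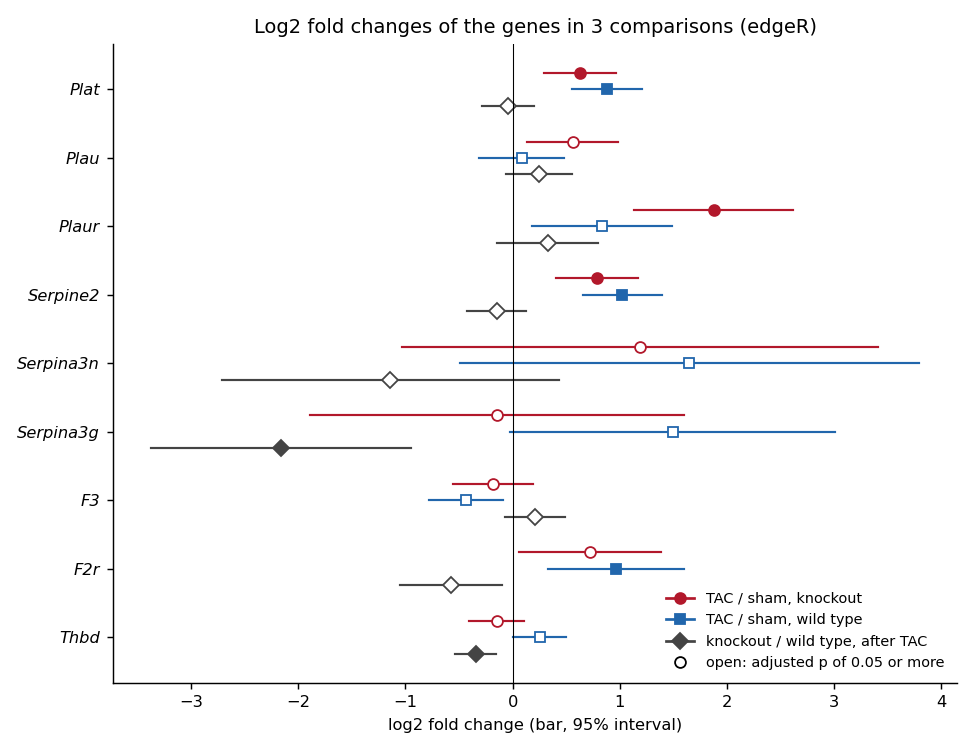
Log2 fold changes of the 9 genes for TAC over sham in knockout and wild type hearts and for knockout over wild type after TAC. Bars are 95% intervals and filled points have an edgeR adjusted p below 0.05. Serpine2 and Plat are filled in both TAC comparisons, Plaur in knockout alone, F2r in wild type alone, and Serpina3g and Thbd in the comparison of genotypes after TAC.

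Averaged over both genotypes, 4 of the 9 genes were higher after TAC and none was lower, where 24.2% of all tested genes passed, 12.7% upward. This comparison rests on all 10 TAC and 4 sham libraries. Serpine2 had a log2 fold change of 0.91 (95% interval 0.64 to 1.17, edgeR adjusted p = 0.00042), Plat of 0.76 (0.52 to 0.99, edgeR adjusted p = 0.00048), Plaur of 1.35 (0.86 to 1.85, edgeR adjusted p = 0.0012) and F2r of 0.84 (0.39 to 1.30, edgeR adjusted p = 0.013). These 4 genes are a plasminogen activator, a protease inhibitor, the urokinase receptor and the thrombin receptor. The calls of Serpine2, Plat and Plaur remained in all 14 fits that left out 1 library. F2r lost its call without knockout sham replicate 1 (adjusted p = 0.07) or wild type sham replicate 1 or 2 (0.054 each). F3 (log2 fold change -0.31, edgeR adjusted p = 0.072) passed without knockout TAC replicate 4 (0.042), and Plau (0.32, edgeR adjusted p = 0.097) without wild type TAC replicate 7 (0.021).

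Cell markers and the mitochondrial share of the counts also differed between TAC and sham. Of the fibroblast markers, whose sums are given above, 0 of 6 passed upward in knockout and 4 of 6 in wild type hearts. Without the library labelled replicate 1 of wild type TAC, 2 of 6 did in knockout (Lum and Postn) and 5 of 6 in wild type hearts. The macrophage markers summed to 192 to 257 CPM in knockout TAC, against 181 to 184 CPM in knockout sham, and to 229 to 375 CPM in wild type TAC, against 185 to 193 CPM in wild type sham. Of these, 0 of 6 passed upward in knockout, 5 of 6 in wild type hearts and 5 of 6 averaged over genotypes; without that library the counts were 1, 5 and 6. The heart muscle markers passed downward in 3 of 6 genes (Myh6, Ryr2 and Pln) averaged over genotypes. Pln also passed downward within both genotypes (log2 fold change -0.52 in knockout and -0.51 in wild type), and Ryr2 within wild type hearts. Of the mural markers, Cspg4 passed upward within both genotypes (0.70 in knockout and 0.51 in wild type). Averaged over genotypes, Cspg4 and Pdgfrb passed upward and Abcc9 downward, and the platelet marker Pf4 and the mesothelial marker Msln passed upward. Mitochondrial genes held 14.9% to 19.2% of counts in knockout TAC, against 20.5% and 23.7% in knockout sham, and 10.1% to 17.1% in wild type TAC, against 18.5% and 18.8% in wild type sham, with no overlap in either genotype. The part of these differences in the TAC differences of the 9 genes was not tested.

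**Figure D3:**
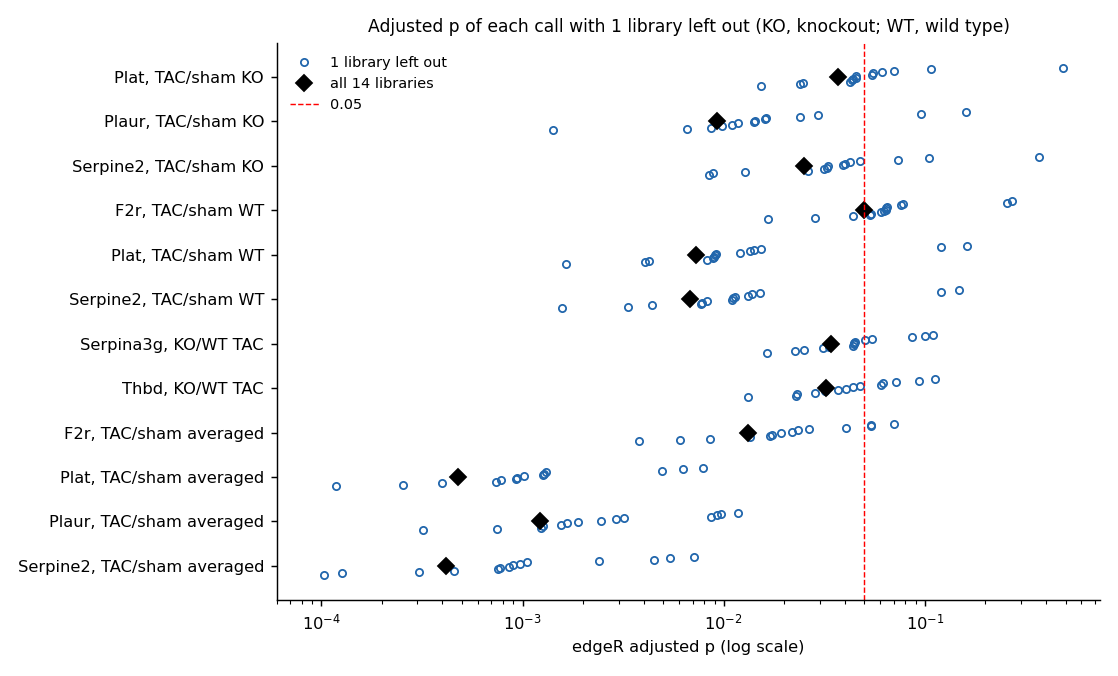
Adjusted p (log axis) of each call among the 9 genes in the fit on all 14 libraries and in the 14 fits that each left out 1 library; the line marks 0.05. The calls averaged over genotypes for Serpine2, Plat and Plaur stay below 0.05 throughout, and the F2r call in wild type hearts crosses it in 11 of 14 fits.

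The second question was whether the 9 genes differed between knockout and wild type hearts under the same surgery. After TAC, 2 of the 9 genes were lower in knockout hearts (Serpina3g, Thbd) and none was higher, where 9.34% of all tested genes passed, 5.63% downward. The median log2 fold change of the 9, knockout over wild type, was -0.15, against -0.01 over all tested genes. Without the library labelled replicate 1 of wild type TAC the same 2 genes passed, where 18.5% of all genes did. After sham 0 of the 9 passed in edgeR, where 0.126% of all genes did. At an unadjusted p below 0.05, 0 of the 9 passed there as well, and DESeq2 and limma voom also called 0, while a fit on the 4 sham libraries alone called Serpina3n and F2r. That fit, with 2 libraries per group, called 1246 of all 15876 tested genes, against 20 in the main fit.

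Serpina3g was 4.47-fold lower in knockout than in wild type hearts after TAC. The 4 knockout TAC libraries held 0.460 to 1.26 CPM (8 to 28 counts) and the 6 wild type TAC libraries 1.38 to 9.53 CPM (35 to 318 counts), without overlap. The group means were 0.807 ± 0.334 CPM in knockout TAC and 3.64 ± 3.06 CPM in wild type TAC (SD, n = 4 and 6). The log2 fold change was -2.16 (SE 0.56, edgeR adjusted p = 0.034). Without wild type TAC replicate 7, the highest library, it was -1.57 (adjusted p = 0.016), and without the library labelled replicate 1 of wild type TAC, which held 2.52 CPM, it was -2.24 (adjusted p = 0.023). The call was lost without knockout TAC replicate 2 (adjusted p = 0.086), 4 (0.10) or 5 (0.11), or without wild type TAC replicate 3 (0.05, just above the threshold) or 6 (0.055). It was also lost with compared groups only (0.063), in limma voom (0.077) and without the filter on low counts (0.078). After sham the difference was -0.52 (95% interval -2.45 to 1.41, edgeR adjusted p = 0.88).

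Thbd was 1.27-fold lower in knockout than in wild type hearts after TAC, averaging 74.5 ± 7.91 CPM and 94.6 ± 7.53 CPM (SD, n = 4 and 6). The groups met at a single point, with 85.7 CPM in knockout TAC replicate 4 and 85.6 CPM in the library labelled replicate 1 of wild type TAC. The log2 fold change was -0.35 (SE 0.09, edgeR adjusted p = 0.032), and -0.37 (adjusted p = 0.013) without that library. The call was lost without knockout TAC replicate 2 (adjusted p = 0.093) or 5 (0.11), or without wild type TAC replicate 3 (0.072), 4 (0.062) or 6 (0.06). Endothelial cells are the best known site of thrombomodulin, and the 6 endothelial markers Pecam1, Cdh5, Kdr, Tie1, Egfl7 and Emcn summed to 930 to 1170 CPM in knockout TAC, against 652 to 1116 CPM in wild type TAC. Of these markers 1 of 6, Egfl7, passed between the genotypes after TAC, and it was higher in knockout; without that library Cdh5 was higher as well, making 2 of 6. After sham, Thbd differed by 0.06 (95% interval -0.24 to 0.36, edgeR adjusted p = 0.92).

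F2r had a mean of 71.6 ± 13.3 CPM in knockout TAC and 107 ± 35.8 CPM in wild type TAC (SD, n = 4 and 6), with a log2 fold change of -0.58 (95% interval -1.05 to -0.10, edgeR adjusted p = 0.11). It passed without wild type TAC replicate 2 (adjusted p = 0.045), and in DESeq2 (0.039). Serpina3n averaged 40.0 ± 24.7 CPM in knockout TAC and 88.2 ± 95.7 CPM in wild type TAC, and its log2 fold change of -1.14 (SE 0.71, edgeR adjusted p = 0.32) was -0.33 without wild type TAC replicate 7. The plasminogen genes and Serpine2 were closer between genotypes after TAC. Plat differed by -0.04 (95% interval -0.29 to 0.20), Serpine2 by -0.15 (-0.42 to 0.13), Plau by 0.25 (-0.06 to 0.55), F3 by 0.21 (-0.07 to 0.49) and Plaur by 0.33 (-0.14 to 0.80), with edgeR adjusted p of 0.27 to 0.83. These intervals leave room for differences in either direction. Averaged over both surgeries, 0 of the 9 genes passed in edgeR, where 8.94% of all genes did. There Serpina3g (log2 fold change -1.34, edgeR adjusted p = 0.12, DESeq2 adjusted p = 0.027) and F2r (-0.46, edgeR adjusted p = 0.17) had an unadjusted p below 0.05.

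The genotype difference after TAC coincided with differences in cell markers. The fibroblast markers passed downward in knockout TAC hearts in 3 of 6 genes, and in 6 of 6 without the library labelled replicate 1 of wild type TAC. The macrophage markers passed downward in 4 of 6, and in 5 of 6 without that library, with the sums given above. Of the heart muscle markers, Tnni3 was higher in knockout (log2 fold change 0.49, edgeR adjusted p = 0.046), and without that library Pln was higher as well. Neutrophil markers summed to 8.45 to 14.8 CPM in knockout TAC and 5.97 to 43.2 CPM in wild type TAC, and Ly6g was at 0 in 9 of 14 libraries. The part of these markers in the Serpina3g and Thbd differences was not tested. Platelet markers were low, 10.9 to 13.5 CPM in knockout TAC and 11.9 to 14.9 CPM in wild type TAC, with Gp1bb at 0 in all 14 libraries, and hepatocyte markers summed to at most 3.20 CPM in any library. Mural markers summed to 1239 to 1557 CPM in knockout TAC and 1165 to 1551 CPM in wild type TAC, with 0 of 6 called. Mesothelial markers summed to 12.1 to 17.2 CPM in knockout TAC and 4.67 to 12.7 CPM in wild type TAC, and 1 of the 5 tested, Upk3b, was higher in knockout, or 2 (Upk3b and Wt1) without the library labelled replicate 1 of wild type TAC.

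The third question was whether the response to TAC differed between genotypes. The interaction is the TAC over sham log2 fold change in knockout minus that in wild type hearts. In edgeR 0 of 15876 genes passed, which is 0% of those tested, so none of the 9 did; 647 genes had an unadjusted p below 0.05, DESeq2 called 6 and limma voom 0. Of the 9 genes 2 had an unadjusted p below 0.05. Plaur had an interaction of 1.04 (95% interval 0.09 to 2.00, edgeR adjusted p = 1.0), with a larger TAC difference in knockout hearts. Thbd had an interaction of -0.40 (-0.76 to -0.04, edgeR adjusted p = 1.0), where the TAC over sham differences given above, -0.15 in knockout and 0.25 in wild type hearts, had not passed and that in knockout was 0.06 without knockout sham replicate 2. So the Plaur and F2r calls in a single genotype were not shown to differ between genotypes, and the F2r interaction was -0.24 (-1.12 to 0.64).

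Among the 14 libraries, the deepest one, wild type TAC replicate 7, held the highest level of 6 of the 9 genes (Serpine2, Serpina3n, Serpina3g, Plaur, F2r and Thbd) and the lowest of 2 (Plau and F3). It also had the highest fibroblast marker sum, 6188 CPM, the lowest endothelial marker sum, 652 CPM, and the smallest share of counts on mitochondrial genes, 10.1%, against 11.6% to 23.7% in the other libraries. In knockout TAC hearts, replicates 1 and 2 were above replicates 4 and 5 for Serpine2, Serpina3n, Serpina3g and F2r, and their fibroblast marker sums of 2454 and 2261 CPM were above the 1493 and 1833 CPM of replicates 4 and 5. The part of depth and of these markers in the spread within a group was not tested.

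To set levels of different genes side by side, CPM were divided by the union of all annotated exons of each gene. This union was 8287 bases in Serpine2 and 6241 in Plat, against 2064 to 3723 in the others. It can exceed the length of the transcript expressed, which lowers the value, so the order of the genes depends on it. By this measure Serpina3n averaged 42.7 ± 46.3 CPM per kb in wild type TAC hearts, F2r 32.0 ± 10.7 and Thbd 25.4 ± 2.02 CPM per kb. The order of these 3 rested on replicate 7. Without it Serpina3n averaged 24.4 ± 12.9, below F2r at 28.6 ± 7.60 and Thbd at 25.0 ± 1.96 CPM per kb (SD, n = 5), and the medians over all 6 libraries were 25.0 for Serpina3n, 30.5 for F2r and 25.8 CPM per kb for Thbd. Serpine2 followed at 10.8 ± 1.86, then F3 at 5.29 ± 0.840, Plau at 5.18 ± 0.938 and Plat at 5.08 ± 0.781 CPM per kb, and Plaur (2.05 ± 0.712) and Serpina3g (1.73 ± 1.45) were lowest (SD, n = 6). In wild type sham hearts Thbd led with 21.3 ± 0.640 CPM per kb, then came F2r at 16.4 ± 0.152, Serpina3n at 13.7 ± 1.68, F3 at 7.13 ± 0.346, Serpine2 at 5.33 ± 0.241, Plau at 4.87 ± 0.208 and Plat at 2.76 ± 0.130 CPM per kb (SD, n = 2). In knockout TAC hearts F2r (21.5 ± 3.99), Thbd (20.0 ± 2.13) and Serpina3n (19.4 ± 12 CPM per kb) lay within each other's SD, as did Plau (6.12 ± 1.02) and F3 (6.12 ± 1.05), followed by Plat (4.92 ± 0.452), Plaur (2.58 ± 0.375) and Serpina3g (0.384 ± 0.158 CPM per kb, SD, n = 4). In knockout sham hearts Thbd (22.2 ± 4.32), F2r (13 ± 0.558), Serpina3n (8.55 ± 1.96) and F3 (6.92 ± 0.467 CPM per kb) were highest (SD, n = 2). In wild type TAC hearts the top 3 genes, the next group of F3, Plau and Plat, and the pair of Plaur and Serpina3g each overlapped within their SD. Serpine2 was above F3 in both TAC groups (9.80 ± 1.63 CPM per kb in knockout TAC) and below it in both sham groups (5.68 ± 0.342 CPM per kb in knockout sham). In sham hearts Plaur and Serpina3g were again lowest, at 0.703 ± 0.2 and 0.430 ± 0.0820 CPM per kb in knockout and 1.15 ± 0.0967 and 0.624 ± 0.310 CPM per kb in wild type.

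Serpina3n and Serpina3g lie in a row of related genes on chromosome 12, from 104112724 to 104414329. Of the 9 other Serpina3 genes listed, 4 were tested, Serpina3c, Serpina3f, Serpina3h and Serpina3i. Serpina3f had a TAC over sham log2 fold change of 0.66 (SE 1.65, edgeR adjusted p = 0.86) in knockout hearts. In wild type hearts it was 2.43 (SE 1.51, edgeR adjusted p = 0.29). Serpina3h, annotated as a transcribed pseudogene, held 7.41, 5.56, 5.83 and 3.45 CPM in knockout TAC and 3.86 to 48.5 CPM in wild type TAC, against 3.29 and 3.28 CPM in knockout sham and 2.90 and 2.94 CPM in wild type sham. Serpina3i held 2.65, 1.78, 1.59 and 0.805 CPM in knockout TAC and 1.24 to 11.2 CPM in wild type TAC, against 0.925 and 0.588 CPM in knockout sham and 0.597 and 0.71 CPM in wild type sham. Replicate 7 of wild type TAC was the highest library for Serpina3n, Serpina3g, Serpina3h and Serpina3i alike. How the authors' counting treated reads from the shared stretches is not given in the sources used here. Serpina3c held 2.07, 1.43, 1.55 and 1.55 CPM in knockout TAC and 1.31 to 3.05 CPM in wild type TAC, against 2.77 and 1.66 CPM in knockout sham and 4.09 and 2.99 CPM in wild type sham. In the fit on all libraries Serpina3i alone of the 4 passed, and only averaged over genotypes (TAC over sham log2 fold change 1.92, edgeR adjusted p = 0.049), and it kept the call only in the 4 fits without replicate 5 of knockout TAC or the libraries labelled replicates 1, 2 or 7 of wild type TAC, with adjusted p of 0.054 to 0.15 in the 10 others. Without the library labelled replicate 1 of wild type TAC, Serpina3i was higher also within wild type hearts (log2 fold change 2.83, edgeR adjusted p = 0.041). In the same fit Serpina3c was lower after TAC in wild type hearts (-0.93, edgeR adjusted p = 0.036) and averaged over genotypes (-0.68, edgeR adjusted p = 0.028), against -0.80 (0.091) and -0.61 (0.062) with all libraries.

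**Figure D4:**
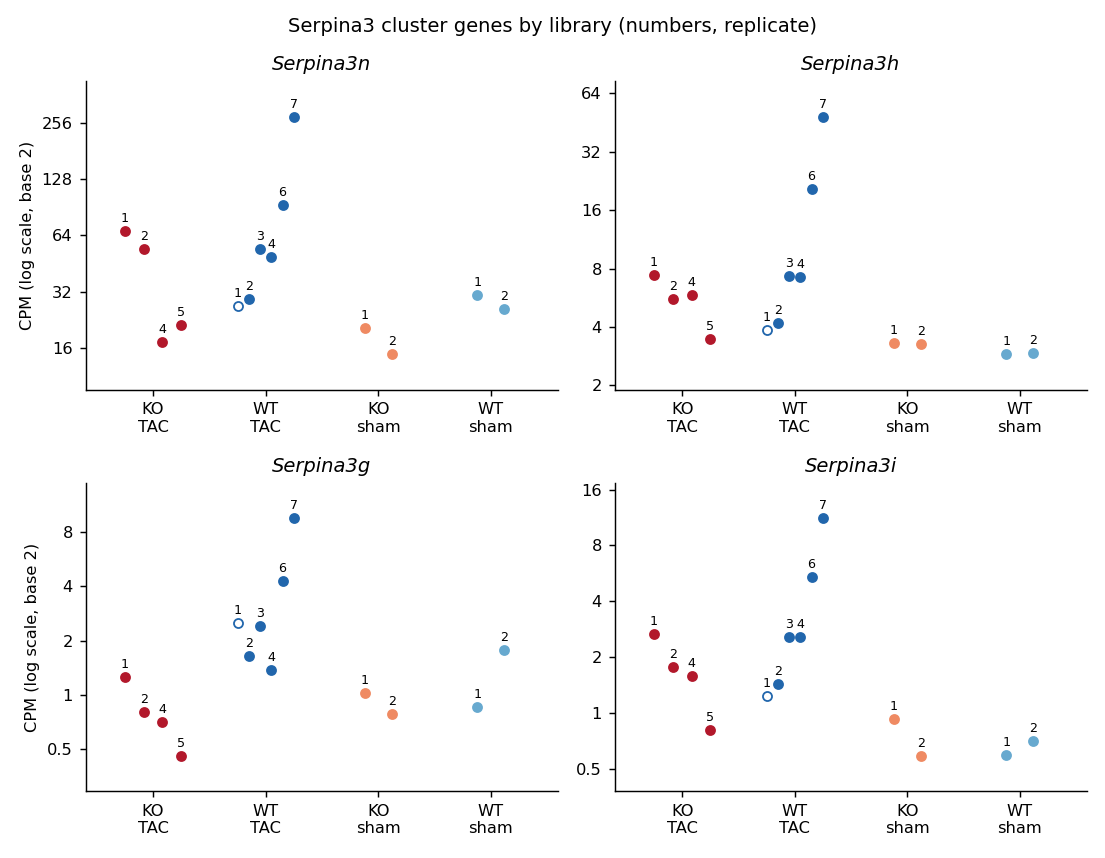
Levels (CPM, log axis) of Serpina3n, Serpina3h, Serpina3g and Serpina3i in the 14 libraries, by group; each point is 1 library with its replicate number, and the open circle is the library labelled replicate 1 of wild type TAC. Wild type TAC replicate 7 is the highest point for Serpina3n (277 CPM), Serpina3h (48.5 CPM), Serpina3i (11.2 CPM) and Serpina3g (9.53 CPM).

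As a description of shared patterns, the tested genes most like each of the 9 over the 14 libraries were found by Pearson's r of log2(CPM + 0.5). These libraries share surgery, genotype, depth and cell makeup, so high values are common. Serpine2 was closest to Meox1 (r = 0.98), Gnai2 (0.98) and Anxa2 (0.97), F2r to Panx1 (0.99), Dbn1 (0.99) and Anxa4 (0.98), and Plat to Glipr2 (0.95), Ywhaq (0.94) and Cd109 (0.94). Plaur was closest to Flna (0.95), Gtf2f1 (0.89) and Tubb6 (0.89), and Plau to Exo1 (0.90), Aurka (0.89) and N4bp3 (0.89). Serpina3n was closest to Col11a1, Ptpn1 and Agfg2 (0.97 each), and Serpina3g to Slc9a7 (0.94), Gfpt2 (0.94) and Rtn4rl2 (0.92). F3 was closest to Ggct (0.91), Arl4d (0.90) and Gm20300 (0.89), and Thbd to Man2a1 (0.88), C130013H08Rik (0.85) and Pdgfra (0.85).

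The other genes of these pathways came from lists of 95 genes, of which 51 were tested. The 44 that were too low included the liver-made substrates and factors Plg, F2, Fga, Fgb, Fgg, F12, Serpinc1, Serpinf2 and Proc. In knockout hearts 4 of the 51 were higher after TAC and none was lower, where 4.08% of all tested genes passed in either direction, 2.36% upward. In wild type hearts 12 were higher and 1 was lower, where 12.2% of all genes passed, 6.36% upward. After TAC, 6 were lower in knockout than in wild type hearts and none was higher, where 9.34% of all genes passed, 5.63% downward. After sham 0 of the 51 passed in edgeR, where 0.126% of all genes did, and 0 passed for the interaction, where 0% of all genes did. The median of the 51 was 0.24 for TAC over sham in knockout, 0.45 in wild type, and -0.20 for knockout over wild type after TAC. Without the library labelled replicate 1 of wild type TAC these counts were 5 higher in knockout, 16 higher and 2 lower in wild type, and 11 lower and 1 higher in knockout after TAC, where 5.28%, 17.3% and 18.5% of all genes passed.

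**Figure D5:**
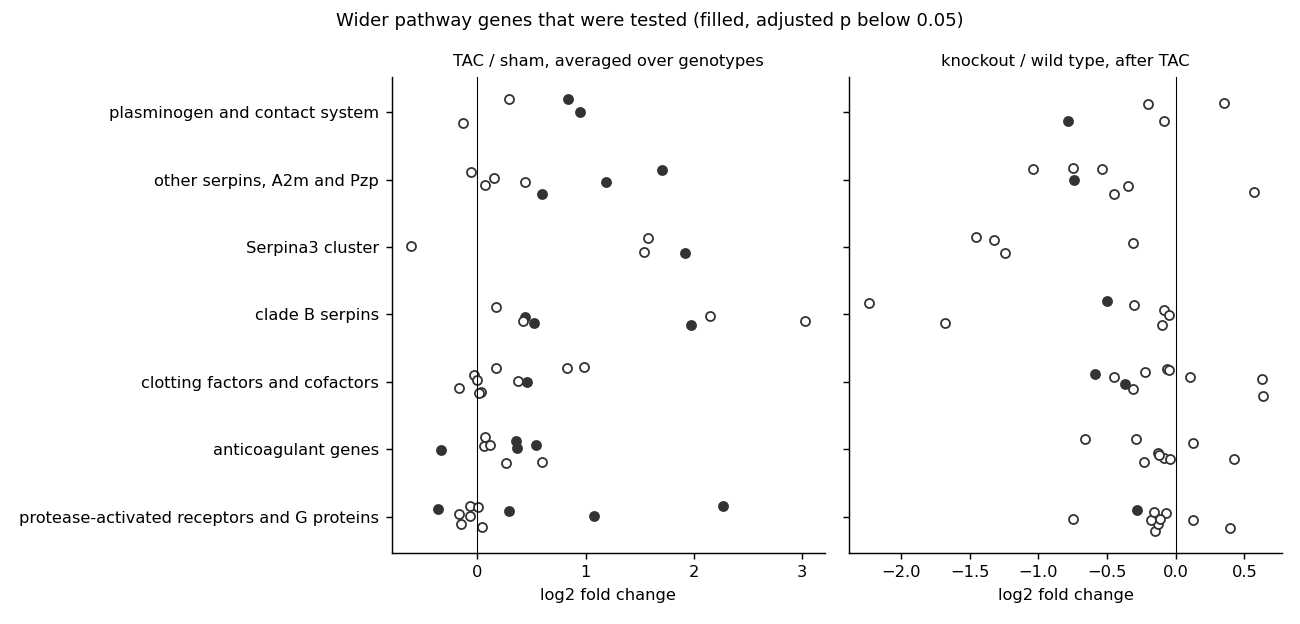
Log2 fold changes of the tested genes of each wider pathway list, for TAC over sham averaged over genotypes (left) and for knockout over wild type after TAC (right); each point is a gene and filled points have an edgeR adjusted p below 0.05. Of 51 tested genes, 16 are filled and higher and 2 filled and lower after TAC, where 24.2% of all tested genes passed, 12.7% upward. The 6 filled genes between genotypes after TAC are all lower in knockout, where 9.34% of all tested genes passed, 5.63% downward.

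Among plasminogen and contact system genes, 4 of 10 were tested, and Anxa2 and S100a10 were higher after TAC in both genotypes. Their products form the annexin A2 complex, a cell-surface docking site for plasminogen and Plat. Anxa2 held 240, 244, 169 and 206 CPM in knockout TAC, against 102 and 126 CPM in knockout sham, and 182 to 352 CPM in wild type TAC, against 122 and 129 CPM in wild type sham. Averaged over genotypes the TAC over sham log2 fold change was 0.95 (SE 0.15, edgeR adjusted p = 0.00097) for Anxa2 and 0.84 (SE 0.13, edgeR adjusted p = 0.00091) for S100a10, and both calls remained in all 14 fits that left out 1 library. Within knockout hearts the S100a10 call remained only in the 4 fits without replicate 4 of knockout TAC or replicates 2, 3 or 7 of wild type TAC, and the adjusted p was 0.054 to 0.51 in the 10 others. The Anxa2 call in knockout hearts was lost without knockout TAC replicate 1 (0.059), 2 (0.087) or 5 (0.06) or knockout sham replicate 1 (0.43) or 2 (0.094). Within wild type hearts both were lost without wild type sham replicate 1 or 2 (0.15 to 0.17). Lrp1, the endocytic receptor that clears activator and serpin complexes, was lower in knockout after TAC. It held 281, 248, 209 and 211 CPM in knockout TAC and 268 to 493 CPM in wild type TAC, the lowest of these being the library labelled replicate 1 of wild type TAC. The knockout over wild type log2 fold change of Lrp1 was -0.78 (SE 0.14, edgeR adjusted p = 0.006), below the threshold in all 14 such fits.

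The list of other serpins outside clade B, which also holds the inhibitors A2m and Pzp, had 7 of 21 genes tested. Averaged over genotypes 3 were higher after TAC, Serpinf1 and Serpinh1 among them, where 12.7% of all tested genes passed upward. Serpinf1, pigment epithelium-derived factor, held 112, 104, 63.1 and 91 CPM in knockout TAC, against 40.5 and 49.9 CPM in knockout sham, and 83.2 to 256 CPM in wild type TAC, against 61.2 and 60.6 CPM in wild type sham. In both genotypes every TAC library was above the sham libraries. Its averaged log2 fold change was 1.19 (SE 0.28, edgeR adjusted p = 0.011), and the call was lost without knockout sham replicate 1 (edgeR adjusted p = 0.067). Serpinh1, a collagen chaperone of the endoplasmic reticulum, had an averaged log2 fold change of 0.60 (SE 0.17, edgeR adjusted p = 0.02), and its call was lost without any 1 of the 4 sham libraries (edgeR adjusted p = 0.064 to 0.084). Serping1, the C1 inhibitor of complement and contact proteases, was lower in knockout after TAC, with 200, 185, 162 and 175 CPM in knockout TAC and 230 to 374 CPM in wild type TAC. Its knockout over wild type log2 fold change was -0.74 (SE 0.12, edgeR adjusted p = 0.0027), and the call remained in all 14 fits that left out 1 library.

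Of the intracellular clade B serpins 7 of 14 were tested. After TAC 1 was higher in knockout and 3 in wild type hearts, where 2.36% and 6.36% of all tested genes passed upward. Serpinb1c was higher in both, with an averaged log2 fold change of 1.97 (SE 0.30, edgeR adjusted p = 0.0012), a call that remained in all 14 fits that left out 1 library, while the calls within a genotype were lost without knockout sham replicate 1 (0.26) or 2 (0.066), and without wild type sham replicate 1 (0.24) or 2 (0.2) or replicate 4 of wild type TAC (0.053). Serpinb6b was lower in knockout after TAC (-0.50, SE 0.13, edgeR adjusted p = 0.03). Among clotting factors and cofactors 10 of 18 were tested. F13a1, the chain of factor XIII that cross-links fibrin and a known macrophage product, was higher after TAC averaged over genotypes (log2 fold change 0.46, SE 0.10, edgeR adjusted p = 0.0043). It was also higher within wild type hearts (0.45, edgeR adjusted p = 0.043). F13a1 was lower in knockout after TAC (-0.37, edgeR adjusted p = 0.041) and averaged over surgeries (-0.38, edgeR adjusted p = 0.027). The call between genotypes after TAC was lost in 7 of the 14 such fits, among them those without knockout TAC replicate 4 (0.11) or 5 (0.14). The F13a1 call averaged over surgeries was lost in 6 of the 14. Vwf, the endothelial carrier that tethers platelets, was lower in knockout after TAC, with 59.8, 39.2, 47.7 and 50.7 CPM against 66.5 to 92.3 CPM in wild type TAC, and a log2 fold change of -0.59 (SE 0.13, edgeR adjusted p = 0.015). The Vwf call was lost without knockout TAC replicate 4 (0.05, just above the threshold) or 5 (0.052). The Serpinb6b call was lost without knockout TAC replicate 2 (0.085), 4 (0.093) or 5 (0.098), or without wild type TAC replicate 3 (0.065) or 4 (0.067).

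Of the anticoagulant genes 9 of 12 were tested. Averaged over genotypes 3 were higher after TAC and 1 was lower, where 24.2% of all tested genes passed, 12.7% upward. Pros1, protein S, the cofactor of activated protein C, had an averaged log2 fold change of 0.36 (SE 0.07, edgeR adjusted p = 0.0015), and Anxa5, which shields anionic phospholipid, of 0.54 (SE 0.09, edgeR adjusted p = 0.00099). Tfpi, the inhibitor of tissue factor, was lower (-0.34, SE 0.07, edgeR adjusted p = 0.0047), and its call was lost without knockout sham replicate 1 (0.05, just above the threshold). Among the protease-activated receptors and their G proteins 10 of 11 were tested. Averaged over genotypes 3 of them were higher and 1 was lower after TAC, against the same shares of all tested genes. F2rl1, the receptor PAR2, which is cut by trypsin-like proteases and by factor VIIa on tissue factor, was low but higher after TAC in both genotypes. It held 2.52, 2.03, 0.884 and 1.55 CPM in knockout TAC, against 0.308 and 0.343 CPM in knockout sham, and 1.91 to 4.55 CPM in wild type TAC, against 0.768 and 0.558 CPM in wild type sham. Its averaged log2 fold change was 2.27 (SE 0.35, edgeR adjusted p = 0.000604), the largest among the called pathway genes in that comparison, and it passed in all 14 fits that left out 1 library. The F2rl1 call within knockout hearts was lost without knockout TAC replicate 2 (0.059) or knockout sham replicate 1 (0.31) or 2 (0.11), and within wild type hearts without wild type sham replicate 1 (0.14) or 2 (0.18). Gna12, a G protein subunit downstream of these receptors, was lower after TAC (-0.36, SE 0.07, edgeR adjusted p = 0.0032), and that call too remained in all 14 fits.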

How the data were processed

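Raw read counts per gene of 14 ventricular RNA libraries were analysed. Per the submitters' processing notes, the authors used FastQC, HISAT2 2.1.0, featureCounts and edgeR with GRCm38, the order, settings, annotation release and strand use being not given in the sources used here. The deposited values are whole, unnormalized counts. Per the labels' protocols, RNA was extracted with the RNeasy Plus Mini kit. Here, genes passing edgeR's filterByExpr were fitted with a quasi-likelihood model of 4 group means (edgeR 4.0.16, TMM scaling, robust), and p-values were adjusted over all 15876 tested genes. An adjusted p below 0.05 counted as a call in each of 7 comparisons. Intervals are 95%, from the edgeR fit, and CPM were TMM-scaled. The floor of 3 counts covers counting error only. The script was tested on simulated data. Alternatives were RLE scaling, no filter, DESeq2 1.42.0, limma voom (limma 3.58.1), compared groups only, a replicate block and leaving out each library. No 2 libraries of a group agreed within sampling noise (chi-square per degree of freedom 4.55 to 176). Of the table's gene IDs, 54409 were found in GENCODE M21, which gave exon lengths. Promoter windows came from RefSeq. Named genes were the 9 members, up to 4 genes with the smallest p of each pathway list in a comparison, and the 3 genes most like each member by Pearson's r. One gene that this rule names is not reported here. The members and lists were chosen with earlier results of these data known. The genotype label was checked by Ccl24.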

Additional observations from a re-analysis of the deposited data

Results flagged for a closer look

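In the wild type TAC group, replicate 7 stood far above the others for 2 of the 9 genes. Serpina3n was at 277 CPM there and at 93.1 CPM in the next library, a gap of 0.735 of the whole range. Serpina3g was at 9.53 CPM there and at 4.30 CPM in the next, a gap of 0.642 of the range. Both exceed the 95% critical value of Dixon's ratio for 6 samples. Chance exceeds that value in about 1 in 20 groups if the values are normally distributed. The ratio was taken on CPM without a log, and a log scale, which shortens such gaps at the high end, was not tried. Of the 18 combinations of gene and TAC group checked, 2 exceeded the critical value, both in wild type TAC and none in knockout TAC. Both genes lie in the Serpina3 row on chromosome 12, and both values come from the same library. The same library was the deepest of the 14 (33123052 counts) and had the lowest share of mitochondrial counts (10.1%). Whether these go with the high values was not tested.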

How the results depend on the processing

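Most member results kept their direction and their side of the threshold. These were 62 of 63 with RLE scaling, 60 with DESeq2, 61 with limma voom and 60 without the filter. With compared groups only 31 of 36 did, and with a replicate block 48 of 63, where 7 lost a call and 8 changed sign. When 1 library was left out 820 of 882 did, while 39 lost a call, 5 gained one and 18 changed sign, none of them a call. Leaving out 1 library gave 0 to 4 members called for TAC against sham in knockout, 0 to 3 in wild type, 0 to 3 between genotypes after TAC, 0 to 0 after sham and for the interaction, 3 to 5 for TAC averaged over genotypes and 0 to 0 for genotype averaged over surgeries. The counts over all genes were 1 to 1343, 0 to 2753, 300 to 2942, 3 to 68, 0 to 3, 1464 to 4379 and 127 to 2206 in the same order of knockout, wild type, after TAC, after sham, interaction and the averaged comparisons. Where this left 1 sham library in a group, it was assumed to vary like the other groups. The cause of the changes listed here was not tested.

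Over 13 same-numbered pairs of libraries the correlation of deviations from the group means was -0.215 to 0.0603, with 0 over 0.1. In a sham group of 2 libraries the deviations are equal and opposite, so this check cannot decide whether the replicate numbers pair samples. With a replicate block 1 member was called for TAC in knockout, 0 in wild type and 0 between genotypes after TAC (3, 3 and 2 without the block). Over all genes the block left 367, 22, 45, 13 after sham, 1478 for TAC averaged over genotypes and 245 for genotype averaged over surgeries, against 648, 1930, 1483, 20, 3848 and 1420. With the block, values that had not passed changed sign to 0.18 for Serpina3g (TAC in knockout), 0.0046 for Serpine2 and 0.29 for Serpina3n (genotype after TAC), 0.97 for Serpina3n and 0.21 for F2r (interaction), -0.0479 for Thbd (TAC averaged), and 0.0493 for Serpine2 and -0.017 for Plau (genotype averaged). Plau was -0.0019 there without the filter.

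Between genotypes after TAC, 1 member was called without the filter, in limma voom and with compared groups only, where Serpina3g had adjusted p of 0.078, 0.077 and 0.063. A fit of the sham libraries alone called 2 members, Serpina3n (0.011) and F2r (0.038), and DESeq2 called 1 for genotype averaged over surgeries. F2r in wild type had 0.051 with RLE scaling, 0.13 without the filter and 0.11 with compared groups only; F2r in knockout had 0.01 with compared groups only; Plat in knockout had 0.056 in limma voom. Over all genes, compared groups only gave 1460 calls for TAC in knockout, 705 in wild type, 752 between genotypes after TAC and 1246 after sham. DESeq2 gave 1342 in knockout, 2351 after TAC, 147 after sham and 6 for the interaction, and no filter gave 44 after sham and 3 for the interaction. In wild type hearts 1009 genes were higher and 921 lower after TAC, and 702 and 972 in limma voom.

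Among the values that had not passed, leaving out 1 library gave -0.43 to 0.0596 for Serpina3g and -0.34 to 0.0617 for Thbd (TAC in knockout), -0.11 to 0.011 for Plat (genotype after TAC), and -0.97 to 0.0834 for Serpina3g, -0.0066 to 0.38 for Plat, -0.12 to 0.0195 for F3 and -0.16 to 0.24 for Thbd (genotype after sham). It gave -0.84 to 0.35 for the Serpina3n interaction, -0.0405 to 0.16 for Thbd (TAC averaged), and -0.0693 to 0.0148 for Serpine2, -0.0292 to 0.17 for Plat and -0.10 to 0.10 for Plau (genotype averaged). Counting error weighs most on Serpina3g and Plaur, which had as few as 8 and 30 counts in a library.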
